A study of Mus musculus with 3 samples.

Results

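The immediate early response genes Fos, Fosb, Jun, Junb, Egr1, Ier2, Atf3, Zfp36, Nr4a1 and Dusp1 were taken by symbol as a named list of 10 of the 32285 genes counted, and all 10 had counts in each section. The tissue was skin wound of C57BL/6J mice at 3 times after injury (Day 3, Day 7, Day 14), measured on Visium slides, on which barcoded spots capture polyadenylated RNA and each molecule is counted by its unique molecular identifier (UMI). There was 1 section per day, no section of intact skin was analysed here, and the labels give no transgene or treatment other than the wound. A spot is a small region that can hold several cells. Levels are given as CPM, the UMIs of a gene per 1000000 UMIs of all genes, and with 1 section per day no test between days was possible. The 95% intervals given throughout reflect counting error alone, and variation between animals was not measured.

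Immediate early genes are switched on within minutes of a stimulus such as a growth factor, a cytokine or tissue injury, by kinase cascades that act on transcription factors already present in the cell, and no new protein is needed for the response. Fos, Fosb, Jun, Junb and Atf3 encode leucine zipper proteins that pair to form the transcription factor AP-1, Egr1 encodes a zinc finger factor and Nr4a1 an orphan nuclear receptor, and Ier2 encodes a nuclear response protein. Zfp36 encodes tristetraprolin, which speeds the decay of cytokine mRNAs, and Dusp1 encodes a phosphatase that inactivates MAP kinases, so both act as brakes. In skin these genes respond to wounding, and in neutrophils and macrophages to inflammatory signals.

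Promoter sequence from RefSeq (build GRCm38.p6) was examined for 8 of the 10 genes. Egr1 and Ier2 were not examined, so the counts below do not cover them. The core of the cyclic AMP response element, TGACG, was searched on both strands from 250 bases before to 50 bases after each start site. It stood in the promoters of 6 of the 8 genes, namely Fos, Fosb, Junb, Atf3, Nr4a1 and Dusp1, and in 20.8% of the 32851 promoters of the table. The full palindrome TGACGTCA, which contains TGACG on both strands, occurred in Dusp1 alone among the 8 and in 1.79% of all promoters. The CArG box bound by serum response factor occurred in Zfp36 alone among the 8 and in 1.63% of all promoters. The Egr1 consensus GCGGGGGCG occurred in 3 of the 8, Fosb, Zfp36 and Nr4a1, against 2.91% of all. The AP-1 consensus TGANTCA occurred in 0 of the 8 and in 7.81% of all. These matches are descriptions of the letters in these windows. The 150 bases before the start site are shown, 5′ to 3′ on the gene's strand, for the 3 genes whose levels were lowest on both later days relative to Day 3 (Fos, Fosb and Atf3), for Jun, whose level held, and for both feedback genes. Capitals mark TGACG or its complement CGTCA and, in Zfp36, the CArG box. The positions are chr12:85473740-85473889 (plus strand) for Fos, chr7:19310046-19310195 (minus) for Fosb, chr1:191183334-191183483 (minus) for Atf3, chr4:95052223-95052372 (minus) for Jun, chr7:28379229-28379378 (minus) for Zfp36 and chr17:26508473-26508622 (minus) for Dusp1.
Fos: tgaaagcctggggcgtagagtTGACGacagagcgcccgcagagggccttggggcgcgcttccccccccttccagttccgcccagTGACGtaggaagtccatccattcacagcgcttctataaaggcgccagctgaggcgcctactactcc
Fosb: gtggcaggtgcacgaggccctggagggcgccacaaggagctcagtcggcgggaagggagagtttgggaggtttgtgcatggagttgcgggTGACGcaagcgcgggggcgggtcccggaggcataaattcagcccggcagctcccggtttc
Atf3: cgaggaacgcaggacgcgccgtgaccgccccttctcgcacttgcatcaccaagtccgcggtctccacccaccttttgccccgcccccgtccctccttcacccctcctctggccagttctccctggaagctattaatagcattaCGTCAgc
Jun: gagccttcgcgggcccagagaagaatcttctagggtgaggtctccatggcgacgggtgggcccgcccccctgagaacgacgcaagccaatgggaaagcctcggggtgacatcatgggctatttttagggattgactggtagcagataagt
Zfp36: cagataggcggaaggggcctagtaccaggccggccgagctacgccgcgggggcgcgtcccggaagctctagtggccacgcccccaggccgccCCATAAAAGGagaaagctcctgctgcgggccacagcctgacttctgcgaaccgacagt
Dusp1: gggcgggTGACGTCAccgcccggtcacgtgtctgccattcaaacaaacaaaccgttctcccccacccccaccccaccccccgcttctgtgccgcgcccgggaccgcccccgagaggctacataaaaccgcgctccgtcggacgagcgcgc

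Between 549 and 697 spots per section lay in the area marked as tissue, with 1772259, 4442962 and 4611723 UMIs on Days 3, 7 and 14. The 10 genes together gave 1798, 2026 and 3139 UMIs in that area. The unmarked area held 1703210 to 6457066 UMIs per section, of which the 10 genes took 2142 to 2437, so these spots are described as well. Under tissue and outside refer below to this mark, and the unmarked area can hold tissue too. All 4992 spot barcodes were shared by the 3 slides, which have the same layout. The skin markers were present, with UMIs of all 10 epidermal and all 10 matrix fibroblast genes under tissue in each section. The neutrophil list (10 genes, S100a8 and S100a9 among them) summed under tissue to 2393, 217 and 146 CPM on the 3 days.

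The Fos family and Atf3 showed the largest differences between days. On Days 3, 7 and 14, Fos stood at 69.97, 17.3 and 18.9 CPM, with intervals of 58.2 to 83.4, 13.7 to 21.7 and 15.1 to 23.3. Fosb, its close relative, stood at 36.7 CPM (28.3 to 46.7), then 6.98 CPM (4.74 to 9.90), then 3.69 CPM (2.15 to 5.90). Atf3, a stress-induced partner of the Jun proteins, stood at 41.2 CPM (32.3 to 51.8), then 8.33 CPM (5.86 to 11.5), then 6.51 CPM (4.39 to 9.29). For all 3 genes the Day 3 interval lay above those of both later days, and the intervals of Day 7 and Day 14 overlapped. As a log2 ratio, Day 7 over Day 3 gave -2.01 for Fos (-2.44 to -1.59), -2.39 for Fosb (-3.06 to -1.76) and -2.31 for Atf3 (-2.92 to -1.72). Day 14 over Day 3 gave -1.89 for Fos (-2.30 to -1.48), -3.31 for Fosb (-4.18 to -2.53) and -2.66 for Atf3 (-3.33 to -2.03). A lower level can mean fewer cells that express a gene or less RNA per cell, which cannot be told apart in spots.

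The Jun family behaved differently. Jun, a dimer partner of the Fos proteins, stood at 122, 108 and 115 CPM on the 3 days in turn, with intervals of 107 to 140, 98.4 to 118 and 106 to 126. The 3 intervals overlapped, and the log2 ratio over Day 3 was -0.18 for Day 7 (-0.42 to 0.055) and -0.086 for Day 14 (-0.32 to 0.15). Junb, which can oppose Jun in AP-1 dimers, stood at 269 CPM (246 to 294), then 117 CPM (108 to 128), then 220 CPM (207 to 234). Its Day 7 level lay below the other 2 days, with a log2 ratio of -1.20 over Day 3 (-1.38 to -1.01), and the Day 14 level was 0.90 above Day 7 on the log2 scale (0.75 to 1.06).

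Egr1 and Nr4a1 were also lowest on Day 7. Egr1 stood at 93.1 CPM (79.4 to 108), then 31.1 CPM (26.1 to 36.7), then 67.4 CPM (60.1 to 75.4). Its log2 ratio was -1.58 for Day 7 over Day 3 (-1.92 to -1.25) and 1.12 for Day 14 over Day 7 (0.82 to 1.42), and no interval overlapped another. Nr4a1 stood at 120 CPM (105 to 137), then 52.4 CPM (45.9 to 59.6), then 67.0 CPM (59.7 to 74.9), with a log2 ratio of -1.20 for Day 7 over Day 3 (-1.47 to -0.92). The 3 levels of Ier2 were closer together, at 54.7 CPM (44.4 to 66.8), 38.5 CPM (32.9 to 44.7) and 64.6 CPM (57.5 to 72.4). Ier2 was -0.51 on Day 7 (-0.88 to -0.13) and 0.24 on Day 14 (-0.10 to 0.59) as log2 ratios over Day 3.

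Both feedback genes followed the same order of days, highest on Day 3 and lowest on Day 7. Zfp36 stood at 91.4 CPM (77.9 to 107), then 32.6 CPM (27.5 to 38.4), then 56.8 CPM (50.1 to 64.1). Dusp1 stood at 116 CPM (100 to 133), then 43.4 CPM (37.5 to 50.02), then 60.5 CPM (53.6 to 68.03). The Day 7 over Day 3 log2 ratio was -1.49 for Zfp36 (-1.82 to -1.15) and -1.41 for Dusp1 (-1.70 to -1.12).

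**Figure D1:**
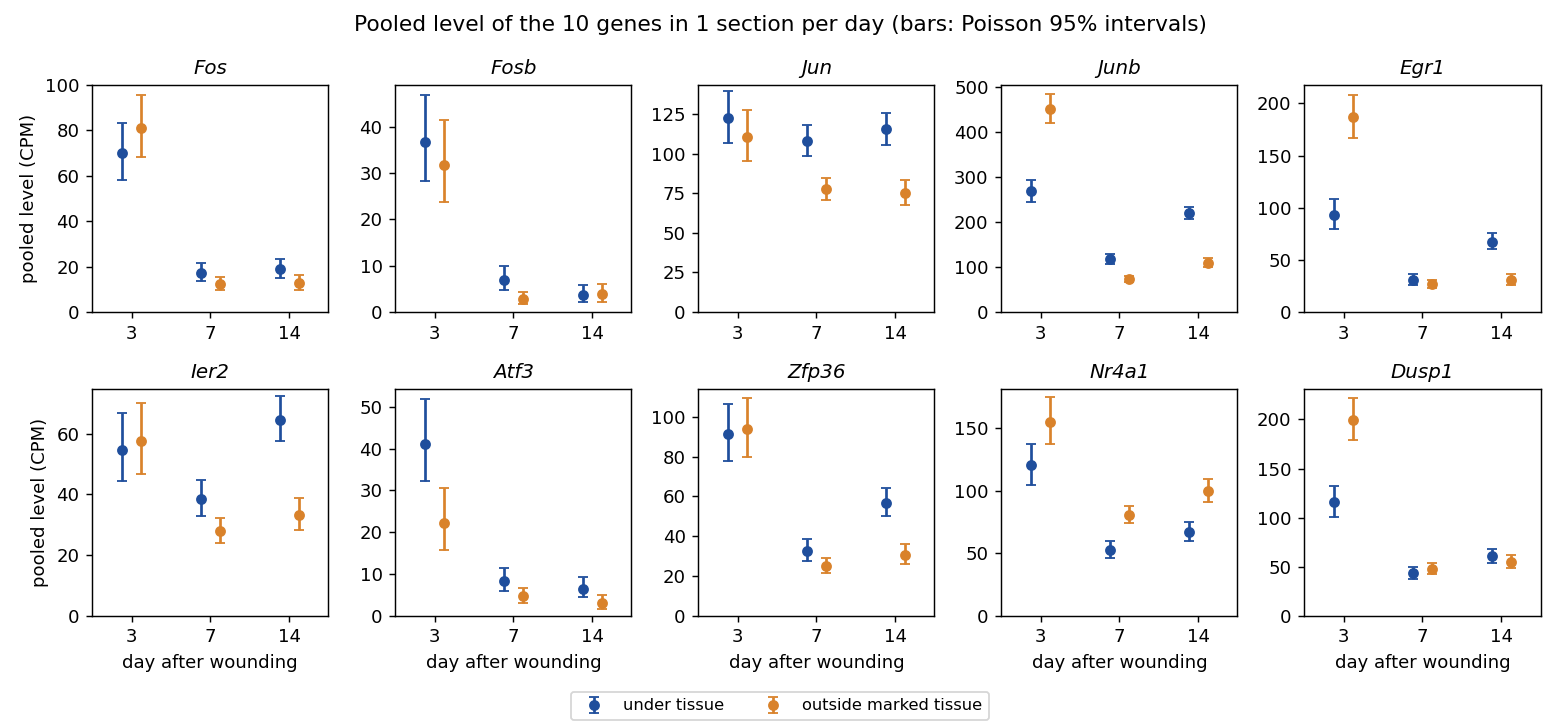
Pooled level in CPM (vertical axes, linear and starting at 0) of each of the 10 genes on Day 3, Day 7 and Day 14, under the marked tissue (blue) and outside it (orange), in 1 section per day. Bars are exact Poisson 95% intervals; Fos under tissue was 69.97 CPM on Day 3 and 17.3 CPM on Day 7, whereas the 3 Jun intervals under tissue overlap.

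Counted together, 8 of the 10 genes were at least 2-fold lower on Day 7 than on Day 3 under tissue and 0 were 2-fold higher, whereas of the 10541 genes with at least 50 UMIs over both sections 6.49% were 2-fold lower and 8.04% 2-fold higher. For 9 of the 10 genes the whole interval lay below 0, against 21.5% of all genes. Jun and Ier2 were the 2 genes not 2-fold lower, and of all 10 genes the interval of Jun alone held 0. The median log2 ratio was -1.45 over the 10 genes and 0.04 over all genes counted. Day 14 over Day 3 gave 3 of 10 genes at least 2-fold lower (Fos, Fosb and Atf3), with 6.83% of all genes 2-fold lower, and 8 of 10 with the interval below 0, against 20.2% of all genes. The medians were -0.76 for the 10 genes and 0.18 for all. These comparisons share the Day 3 section. Day 14 over Day 7 gave 1 gene at least 2-fold higher, Egr1, with 10.9% of all genes 2-fold higher, and 0 genes 2-fold lower, with 7.34% of all. The interval lay above 0 for Junb, Egr1, Ier2, Zfp36, Nr4a1 and Dusp1 (6 of 10, against 35.3% of all genes) and below 0 for Fosb (-0.92, -1.87 to -0.02; 22.7% of all genes), which had under 50 UMIs over this pair. The neutrophil list was also lower on the later days. Without the 10% of spots of each section richest in neutrophil genes, 8 of 10 genes were at least 2-fold lower on Day 7. The summed level then gave a log2 ratio of -1.05 in place of -1.15. The spots kept can still hold neutrophil RNA, and the part of neutrophils in the differences between days was not tested. Over Day 3, Junb on Day 14 moved from -0.29 (-0.45 to -0.13) to -0.14 (-0.31 to 0.03).

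**Figure D2:**
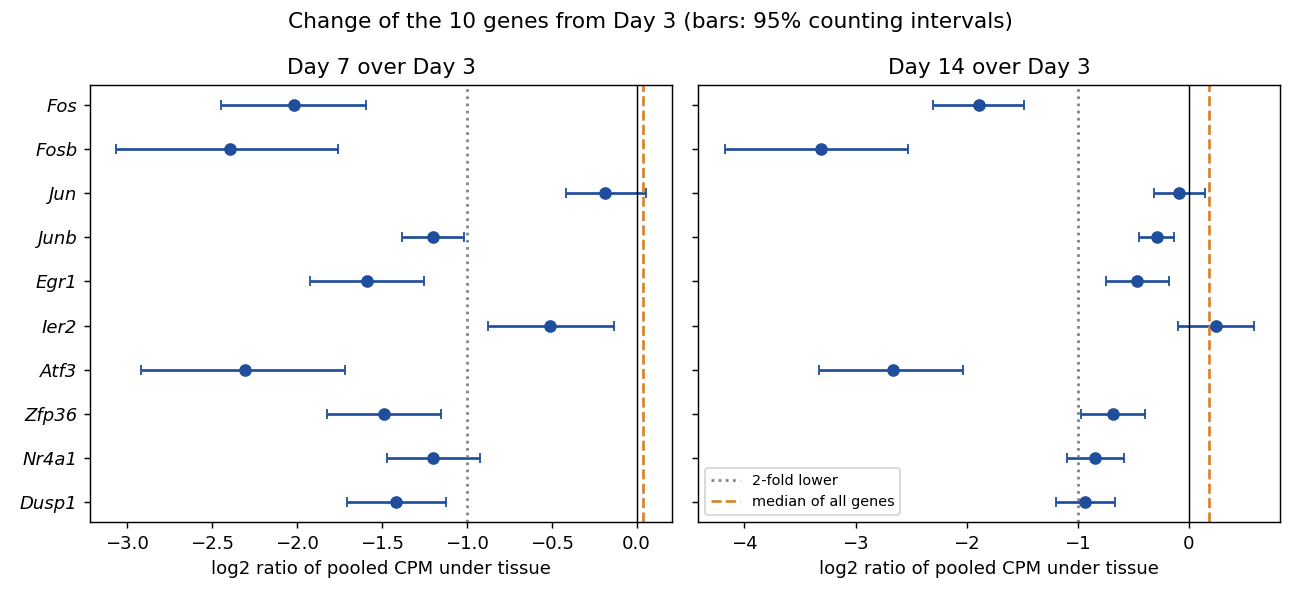
Log2 ratio of pooled CPM under tissue (horizontal axis) for each of the 10 genes, Day 7 over Day 3 on the left and Day 14 over Day 3 on the right, with exact conditional binomial 95% intervals; dotted line, 2-fold lower; dashed line, median of all genes counted (0.04 and 0.18). On Day 7, 8 points lie beyond the dotted line, and on Day 14 those of Fos, Fosb and Atf3.

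Related genes were counted by 5 lists. Of 34 other immediate early genes, 29 had at least 50 UMIs over Day 3 and Day 7. Of these, 11 were at least 2-fold lower on Day 7 (6.49% of all genes) and 0 higher (8.04%), at a median log2 ratio of -0.76. Day 14 over Day 3 gave this list 6 lower of 32 (6.83% of all genes) and 1 higher, at a median of 0.009. Day 14 over Day 7 gave 10 higher of 31 (10.9% of all genes) and 1 lower (7.34%). The lowest were Ptgs2, which encodes the inducible cyclooxygenase, at 113 CPM on Day 3 and 1.35 CPM on Day 7 (log2 ratio -6.38, -7.85 to -5.24), and Ier3, an immediate early survival gene, at 175 and 28.4 CPM (-2.62, -2.94 to -2.32). The highest were Gadd45g, a growth arrest and DNA damage gene (0.89, 0.47 to 1.33), and Ier5l (0.83, 0.23 to 1.48). Of the 13 other AP-1 and ATF family genes 10 had at least 50 UMIs, with a median of -0.03. Of these, 1 was 2-fold lower (6.49% of all genes), Mafk, a small Maf protein (-1.05, -1.48 to -0.62). Mafg was next at -0.64 (-1.08 to -0.18), and the highest were Batf3 (0.64, -0.34 to 1.75) and Jdp2 (0.63, 0.05 to 1.25). Fosl1 (38 and 6 UMIs; -3.99, -5.52 to -2.74) and Maff (27 and 22 UMIs; -1.62, -2.50 to -0.75) were lower too but had under 50 UMIs, as had Batf (5 and 27 UMIs). Feedback regulators other than Zfp36 and Dusp1 gave 0 of 12 past 2-fold in either direction (6.49% of all genes lower, 8.04% higher). They ran from Dusp6 (-0.92, -1.34 to -0.50) and Errfi1 (-0.85, -1.17 to -0.52) to Dusp8 (0.30, -0.64 to 1.32) and Dusp10 (0.89, 0.18 to 1.67). The kinases and factors upstream of the response gave 0 of 15, beside the same shares of all genes. They ran from Map2k1 (-0.46, -0.87 to -0.04) and Map2k2 (-0.34, -0.54 to -0.13) to Mrtfa (0.67, 0.18 to 1.18) and Elk1 (0.98, 0.36 to 1.67).

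Heat shock genes, which respond to cell stress and to handling of tissue, were followed as a separate list because they can move with the same stimuli. On Day 7, 2 of 10 were at least 2-fold lower than on Day 3 (6.49% of all genes), Hspa1a (-1.43, -1.95 to -0.92) and Dnajb1 (-1.19, -1.54 to -0.85), and the highest were Hsp90ab1 (0.43, 0.35 to 0.51) and Hspa8 (0.28, 0.19 to 0.38). From Day 7 to Day 14, 6 of 10 were at least 2-fold higher (10.9% of all genes), with Hspa1a at 38.9, 14.4 and 180.4 CPM on the 3 days. The highest level of Hspa1a was therefore on Day 14, whereas 8 of the 10 immediate early genes had their highest level under tissue on Day 3 by more than the counting interval of their ratio to Day 14. The part of the time to freezing and of handling in these levels was not tested.

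The genes were sparse in single spots. After each spot with at least 1000 UMIs was thinned to 1000 UMIs, a UMI of any of the 10 genes was found in 56.1% of 426 Day 3 spots (51.2% to 60.9%), 32.4% of 525 Day 7 spots (28.4% to 36.6%) and 49.2% of 679 Day 14 spots (45.4% to 53.02%). The interval of Day 7 lay below the other 2. Junb was seen in 22.5%, 9.71% and 18.3% of thinned spots on the 3 days, and Fosb in 2.58%, 0.571% and 0.147%. The shares follow depth, and without thinning they were 61.3%, 80.3% and 86.4% of all spots under tissue.

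Within the marked tissue of Day 3, 6 of the 10 genes were higher in spots that were high for the others. Spots with at least 1000 UMIs were ranked by the summed share of 9 of the genes, and the level of the gene left out was compared between the top 10% and the other spots. Fos stood at 198 CPM in the 43 top spots and 61.6 CPM in the other 383 (log2 ratio 1.68, 0.93 to 2.38). Egr1 gave 239 and 78.9 CPM (1.60, 0.89 to 2.25), Zfp36 219 and 79.3 CPM (1.47, 0.76 to 2.12), and Dusp1 270 and 98.9 CPM (1.45, 0.81 to 2.04). Jun (1.07, 0.41 to 1.67) and Junb (0.97, 0.52 to 1.39) were higher as well, so 6 of 10 intervals lay above 0 and 5 genes were at least 2-fold higher. Of the other genes, in spots ranked by all 10, 8.26% had an interval above 0 and 6.59% were 2-fold higher. Fosb (-0.29, -2.60 to 1.33), Ier2 (-0.21, -1.87 to 1.06), Nr4a1 (0.41, -0.43 to 1.15) and Atf3 (0.998, -0.28 to 2.07) had intervals that held 0. On Day 7 the intervals of Fosb (2.47, 1.17 to 3.65) and Dusp1 (0.92, 0.22 to 1.55) lay above 0, against 3.37% of other genes. Fosb had 9 UMIs in the top spots and 22 in the others, too few for a call, and 0 genes with at least 50 UMIs were past 2-fold, against 1.67% of other genes. On Day 14 the interval of 0 genes lay above 0, against 4.03% of other genes. Junb was lower in the Day 14 spots that were high for the other 9 genes (-0.58, -1.01 to -0.18).

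The high spots of Day 3 lay together. Of the 43 spots highest for all 10 genes, 72.1% touched another such spot, whereas 23.5% of the other spots touched one. On Day 7 these shares were 39.6% and 42.8%, and on Day 14 they were 44.1% and 40.9%. In the Day 3 high spots the neutrophil list summed to 6258 CPM against 1988 CPM in the rest, and 7 of its 9 genes with at least 50 UMIs were at least 2-fold higher. Among the leading other genes there were Acod1 (179 against 26.7 CPM), Mmp9 (395 against 78.7 CPM), Retnlg (159.7 against 26.04 CPM) and Ccl3 (404 against 87.004 CPM). Acod1, Mmp9, Retnlg and Ccl3 are known from activated myeloid cells, and Mmp9 and Retnlg belong to the neutrophil list. Median depth was 1622 UMIs in the high spots and 2565 in the others. On Day 7 the leading genes were Clec4d, Pknox1, Rsad2, Trdn and Cadm4, and on Day 14 Flg, Myo19, Gpatch4, Fra10ac1 and Defb6, each with 14 to 137 UMIs in the high spots.

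Pairwise correlation across spots was weak. Over the 45 pairs the median Pearson correlation was 0.087, 0.039 and 0.024 on the 3 days, and 0.038, -0.011 and -0.012 after thinning. Over all pairs of genes with at least 100 UMIs it was 0.045, 0.030 and 0.034, and -0.0001, -0.0065 and -0.0032 after thinning. The 10 genes were held to no such minimum, and Fosb, for example, had 65, 31 and 17 UMIs under tissue. The 45 pairs lay above these pairs on Day 3 but below them on Day 14. The part of the sparse genes in this was not tested. The other genes whose spot levels were most like the summed share of the 10, by mean correlation over the 3 sections, were Col1a1 (0.35), Col1a2 (0.34), Actb (0.33), H2-K1 (0.32) and Apoe (0.31), out of 2821 genes. These are abundant genes, and spots share depth and library.

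The genes differed in the kind of spot in which they were high. Spots with at least 1000 UMIs under tissue were ranked by 11 marker lists in turn, and the richest 10% were compared with the rest of the section. On Day 3 the 43 neutrophil-rich spots had 280 CPM of Fos against 57.9 CPM (log2 ratio 2.28, 1.59 to 2.92), 291 against 76.2 CPM of Egr1 (1.93, 1.27 to 2.55) and 690 against 235 CPM of Junb (1.56, 1.15 to 1.94). Zfp36 (1.80, 1.12 to 2.43) and Dusp1 (1.74, 1.12 to 2.31) were also at least 2-fold higher, making 5 of 10 genes against 8.63% of all genes counted. Summed over the 10 genes, the neutrophil-rich spots had 2286 CPM and the others 919 CPM on Day 3 (1.31, 1.10 to 1.52), but 457 and 457 CPM on Day 7 (0.00, -0.26 to 0.25) and 691 and 680 CPM on Day 14 (0.02, -0.17 to 0.21). The neutrophil list itself was 217 CPM or less under tissue on those days.

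Fosb was high in epidermis-rich spots. Of its 64 UMIs in these Day 3 spots, 33 lay in the 43 spots richest in epidermal genes, at 99.998 CPM against 22.9 CPM (log2 ratio 2.12, 1.37 to 2.88), and it was the 1 gene of 10 past 2-fold there, with 7.39% of all genes past it. Fosb was also higher in the spots richest in sebaceous gland and hair genes (0.97, 0.11 to 1.77), while Fos was lower there (-1.39, -2.56 to -0.41). On Day 7 and Day 14 the epidermis-rich spots held 2 and 4 UMIs of Fosb, too few to place it.

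Atf3 stood higher in spots rich in matrix fibroblast genes, on Day 3 at 70.9 against 34.7 CPM (1.03, 0.19 to 1.82) and on Day 14 at 22.5 against 4.81 CPM (2.23, 0.97 to 3.39), from 10 and 20 UMIs in the latter. On Day 3 it was the 1 gene of 10 past 2-fold higher, with 3.3% of all genes, and on Day 14 it had under 50 UMIs and was not called. On Day 7 the difference was 0.64 (-0.57 to 1.73).

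Egr1 and Nr4a1 took different places by Day 14. Egr1 had 118 CPM in the 68 spots richest in sebaceous gland and hair genes and 56.6 CPM elsewhere (1.06, 0.70 to 1.41), the 1 gene of 10 past 2-fold there, with 2.9% of all genes past it. Nr4a1, which is known to respond to muscle activity, had 161 CPM in the muscle-rich spots and 63.04 CPM elsewhere (1.36, 0.77 to 1.89), with 5.25% of all genes past 2-fold higher. In the same muscle-rich spots Junb (-1.86, -2.82 to -1.05), Egr1 (-2.16, -4.45 to -0.60) and Ier2 (-1.35, -2.99 to -0.11) were at least 2-fold lower, but 56.1% of all genes were too. Fos, Fosb and Atf3 had 0 UMIs there, which says little at their Day 14 levels of 18.9, 3.69 and 6.51 CPM under tissue. The median depth of the muscle-rich spots was 2849.5 UMIs. Nr4a1 was also higher on Day 14 in spots rich in pericyte and smooth muscle genes (129 against 64.1 CPM; 1.013, 0.40 to 1.58) and in fat genes (114 against 64.3 CPM; 0.83, 0.23 to 1.37). These spots can be the muscle-rich ones in part, and the overlap is not given here. On Day 7 Nr4a1 was 0.78 higher in muscle-rich spots (-0.19 to 1.62) and on Day 3 0.096 (-0.99 to 1.006), and both intervals held 0.

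**Figure D3:**
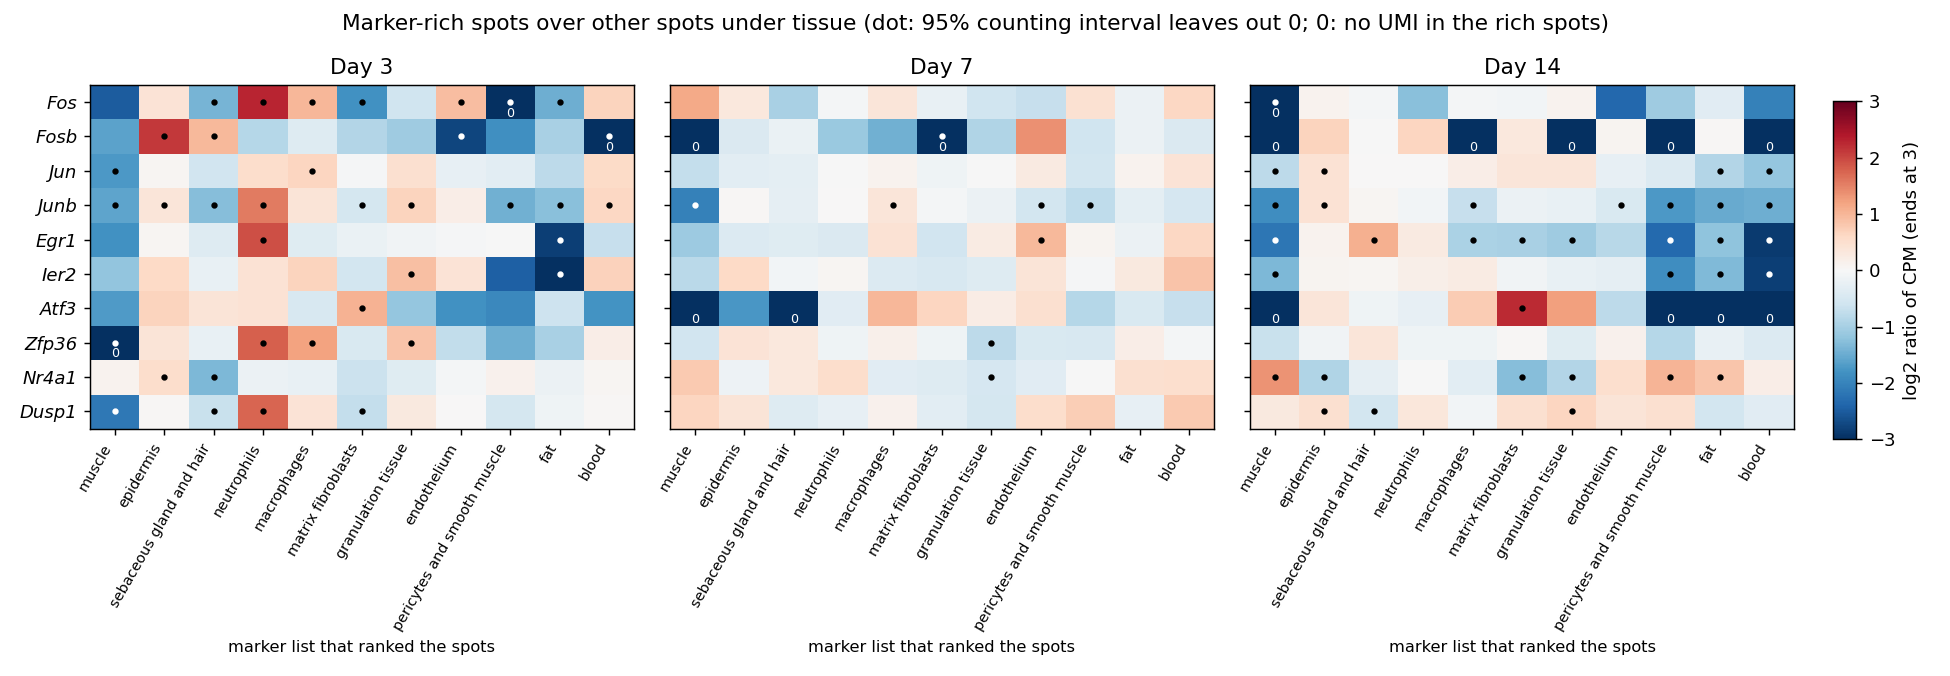
Log2 ratio of CPM between the 10% of spots richest in each of 11 marker lists (columns) and the other spots under tissue, for the 10 genes (rows) on each day; red is higher in the rich spots, and colours end at 3. Dots mark 95% counting intervals that leave out 0, and cells with a 0 had no UMI in the rich spots. The Day 3 neutrophil column is red for Fos (2.28), Egr1 (1.93), Zfp36 (1.80), Dusp1 (1.74) and Junb (1.56), and the Day 14 muscle column is red for Nr4a1 (1.36).

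Outside the marked tissue the 10 genes summed to 1389.7, 377 and 454 CPM on the 3 days, against 1015, 456 and 681 CPM under it. The log2 ratio of outside over under tissue was 0.45 (0.36 to 0.54), then -0.27 (-0.36 to -0.19), then -0.58 (-0.66 to -0.50). On Day 3 Egr1 had 187 CPM outside and 93.1 CPM under tissue (1.004, 0.73 to 1.28), the 1 gene of 10 past 2-fold higher, with 3.4% of all genes, and 0 were past 2-fold lower, with 15.9% of all genes. Junb (0.75, 0.58 to 0.91), Dusp1 (0.79, 0.53 to 1.04) and Nr4a1 (0.37, 0.10 to 0.63) were higher outside by more than counting error, and Atf3 was lower (-0.88, -1.49 to -0.30). On Day 7, 0 genes with at least 50 UMIs were past 2-fold lower outside (8.91% of all genes), and on Day 14 Egr1 was (-1.12, -1.42 to -0.83; 13.7% of all genes). Fosb on Day 7 (-1.32, -2.25 to -0.44) and Atf3 on Day 14 (-1.13, -2.16 to -0.17) had under 50 UMIs over both areas, so neither was called. Nr4a1 was the only one of the 10 higher outside on all 3 days, at 0.62 (0.39 to 0.85) and 0.58 (0.37 to 0.79) on the later days. The muscle list was also higher outside on all 3 days, at 87005 against 40307 CPM, 113943 against 51379 CPM and 129372 against 59879 CPM, and its part in the Nr4a1 result was not tested.

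The Day 3 excess of the summed level outside lay in the shallow spots, which were 3654 of the 4328 outside spots. The 3654 outside spots with under 500 UMIs had 2633 CPM of the 10 genes (2479 to 2795) and 11252 CPM of neutrophil genes, whereas the 674 outside spots with at least 500 UMIs had 993 CPM (939 to 1049) and 3489 CPM. With the latter alone the log2 ratio of the sum to the tissue was -0.031, and 0 of 10 genes were 2-fold higher. Egr1 was still higher in them, at 132 CPM (113 to 154) against 92.3 CPM (78.7 to 108) under tissue at that depth. Atf3 (15.5 against 41.0 CPM) and Zfp36 (56.5 against 91.8 CPM) were lower. On Day 7 the same depth classes had 388 and 376 CPM of the 10 genes and 247 and 267 CPM of neutrophil genes.

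Among the deeper spots 1 group stood out, and it was delimited after the values had been seen. On each slide the 5% of spots with at least 500 UMIs and the highest summed share of the 10 genes were joined where they touched. The largest group had 26 spots on Day 3, and 4 and 5 on the later days. The Day 3 group lay wholly outside the marked tissue, 1.73 to 6.56 spot pitches from it, with a median of 1570 UMIs per spot. Its summed level was 10444 CPM, with single spots from 5739 to 20783 CPM, and the level in the other spots of the slide with at least 500 UMIs was 866 CPM. The last spot taken into the top 5% on Day 3 had 5495 CPM and the first left out 5484 CPM.

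The group held UMIs of 9 of the 10 genes. Junb gave 188 UMIs (4232 CPM against 226 CPM in the other spots), Egr1 102 (2296 against 76.97 CPM) and Dusp1 56 (1260 against 107 CPM). Fos and Zfp36 gave 27 UMIs each (608 CPM, against 55.6 and 68.97 CPM), Nr4a1 23, Jun 21, Ier2 12 and Atf3 8. Fosb gave 0 UMIs, which allows up to 67.5 CPM at 3 UMIs in the group, and stood at 32.3 CPM in the other spots. The group was picked on the summed level of these genes, so its high levels of them describe the choice and are no test. The richest spot had 43 UMIs of the 10 genes out of 2069, with 16 of Junb, 13 of Egr1, 5 of Fos and 4 of Dusp1. Without the group, the Day 3 ratio of outside over under tissue for the sum was 0.18 (0.08 to 0.27) and that of Egr1 0.48 (0.18 to 0.79).

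**Figure D4:**
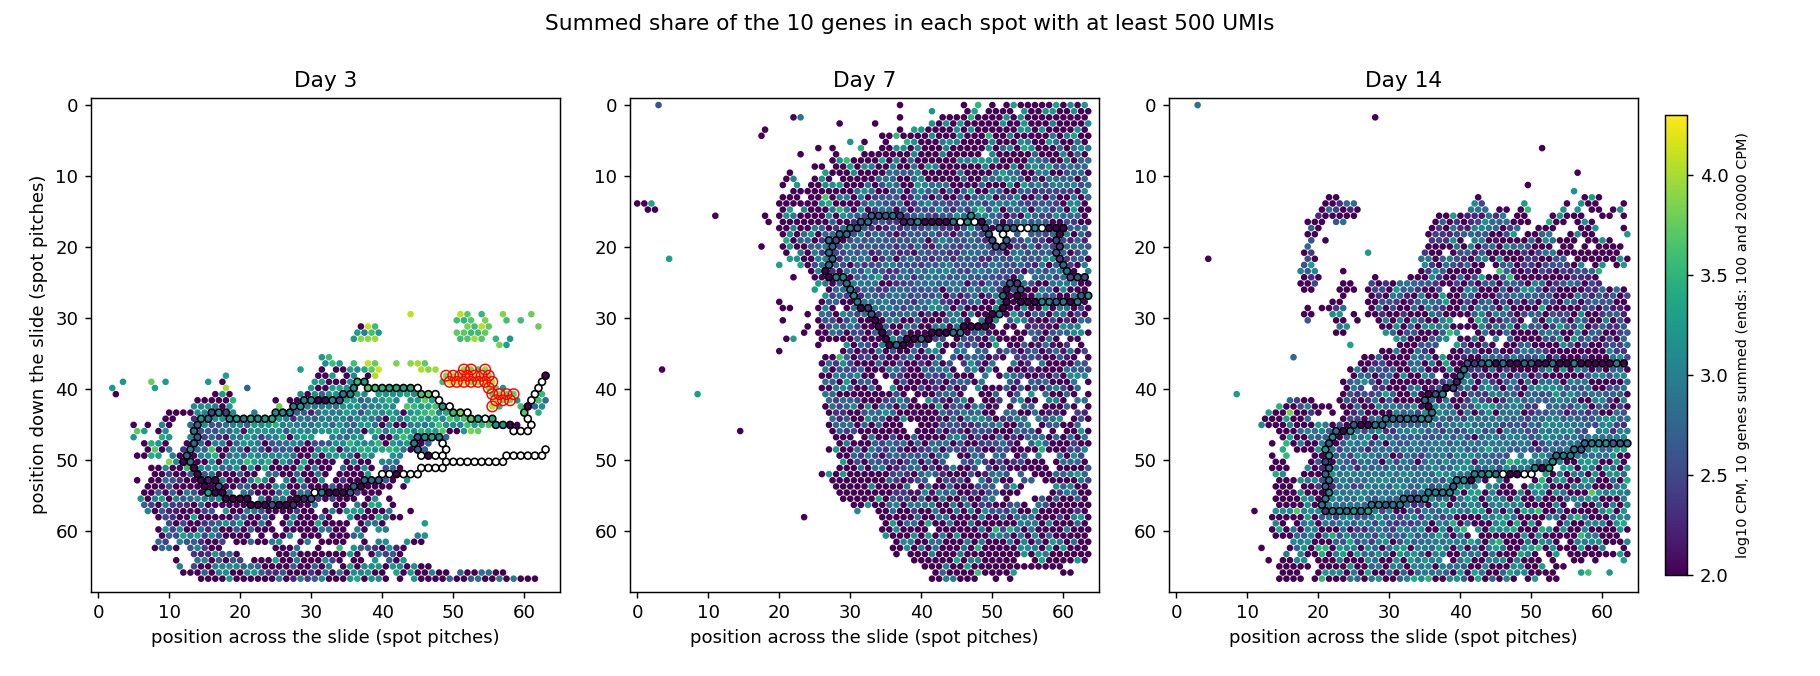
Each dot is a spot with at least 500 UMIs, placed by its position on the slide in spot pitches and coloured by the summed CPM of the 10 genes on a log10 scale, for 1 slide per day; black circles trace the edge of the marked tissue. Red circles on Day 3 mark the 26 touching spots outside the marked tissue, at 10444 CPM together. The Day 7 and Day 14 slides had no such group of more than 5 spots.

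Genes that did not enter the ranking set the group apart as well. Neutrophil genes summed to 48101 CPM there, from 25503 to 90038 CPM in single spots, against 2175 CPM in the other spots. The leading genes were Ccl4 (409 UMIs, 9206 against 247 CPM), Cxcl2 (762 UMIs, 17152 against 590 CPM), Trem1 (103 UMIs), S100a8 (693 UMIs) and Il1b (332 UMIs), which encode chemokines, a myeloid receptor, a granule protein of neutrophils and interleukin-1 beta. The other immediate early genes summed to 17579 against 2793 CPM, whereas heat shock genes had 2634 against 2437 CPM and upstream kinases and factors 563 against 763 CPM. Mitochondrial transcripts were 4.79% of UMIs in the group and 9.76% in the rest.

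The same spots were reached by ranking on neutrophil genes alone. Among outside spots of Day 3 with at least 500 UMIs, the 68 richest in neutrophil genes, of which 26 belonged to the group above, were compared with the other 606. The 8 genes with at least 50 UMIs were each at least 2-fold higher there, against 16.7% of all genes counted. Fosb and Atf3 had fewer UMIs and were not called. All 10 intervals lay above 0, but the share of all genes with such an interval was not counted. Egr1 stood at 1779 against 32.05 CPM (log2 ratio 5.79, 5.27 to 6.35), Junb at 3329 against 120 CPM (4.79, 4.49 to 5.10), Dusp1 at 1253 against 67.4 CPM (4.22, 3.77 to 4.66) and Fos at 499 against 27.9 CPM (4.16, 3.45 to 4.87). Fosb (2.20, 0.75 to 3.45), Jun (2.24, 1.56 to 2.89) and Nr4a1 (1.66, 1.02 to 2.25) had the smallest differences. Median depth was 743 UMIs in the neutrophil-rich spots and 1157 in the others. On Day 7 1 gene and on Day 14 0 genes were 2-fold higher in the outside spots richest in neutrophil genes, with 5.75% and 5.69% of all genes.

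Some settings under tissue were seen again outside it, among them those of Egr1 and Nr4a1 on Day 14. On Day 3 the neutrophil-rich setting above and those of Fosb and Junb in epidermis-rich spots were seen again too. Some others were not. Under tissue on Day 7, 0 genes had an interval above 0 in epidermis-rich spots or in spots rich in sebaceous gland and hair genes. The Day 3 interval of Nr4a1 in muscle-rich spots under tissue held 0. Junb in epidermis-rich spots was above 0 under tissue on Day 3, at 0.37 (0.042 to 0.69). Egr1 was higher in outside spots rich in sebaceous gland and hair genes on Day 14 (101.8 against 26.6 CPM; 1.94, 1.31 to 2.53) and on Day 7 (48.8 against 19.97 CPM; 1.29, 0.80 to 1.77), but lower on Day 3 (-1.32, -2.41 to -0.40). Nr4a1 was higher in muscle-rich outside spots on Day 14 (143 against 92.3 CPM; 0.63, 0.25 to 0.99) and on Day 3 (0.83, 0.075 to 1.5), with 0.33 on Day 7 (-0.13 to 0.76). Fosb was higher in epidermis-rich outside spots on Day 3 (105 against 19.1 CPM; 2.46, 1.17 to 3.63) and on Day 7 (2.64, 0.55 to 4.36), from 9 and 4 UMIs in the rich spots. Junb was higher in epidermis-rich outside spots on all 3 days, at 0.94 (0.46 to 1.38), 1.20 (0.71 to 1.66) and 1.42 (1.09 to 1.74). For Atf3 and matrix fibroblast genes the outside spots gave 2, 3 and 0 UMIs in the rich spots, too few to place it.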

How the data were processed

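Visium sections of skin wounds, 1 for each of the 3 times, were analysed. The deposited files hold raw UMI counts, which the authors produced with Space Ranger 1.3.0 against mm10, per the submitters' processing notes; the counts were not normalized. Spots were split by the deposited mark of tissue. UMIs were pooled per section and divided by all UMIs. Levels carry exact Poisson, ratios conditional binomial and shares Clopper-Pearson 95% intervals, and no test between days was made. A gene was called past 2-fold at 50 UMIs or more over both groups. Thinning drew 1000 UMIs per spot (seed 1). Named genes were the 10 genes, the 2 highest and 2 lowest of each of 5 related lists by Day 7 over Day 3, the 5 most alike and the 5 leading genes of high spots, of which 1 is not reported here. The marker-rich contrasts outside the marked tissue, the depth classes and the group of 26 spots were added after the values had been seen. The 10 genes and all lists were chosen with earlier results of these data known. Spots are no replicates, and doublets were not called. Calculations used Python 3.11.15, numpy 2.4.6, scipy 1.17.1, pandas 2.3.3 and matplotlib 3.10.9; alternatives used size factors of edgeR 4.0.16 and DESeq2 1.42.0 in R 4.3.3. The intervals were tested on simulated counts. RefSeq promoters (GRCm38.p6) were matched by symbol after a filter on chromosome, and Egr1 and Ier2 were not covered.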

Additional observations from a re-analysis of the deposited data

Results flagged for a closer look

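Some ratios lay above 0 on one day and below 0 on another, with each 95% counting interval leaving out 0; with 1 section per day the difference between days was not tested. Outside over under tissue, the log2 ratio of Junb was 0.75, -0.70 and -0.998 on the 3 days, that of Egr1 was 1.004 on Day 3 and -1.12 on Day 14, and that of the 10 genes summed was 0.45, -0.27 and -0.58. The neutrophil list was higher outside the marked tissue on all 3 days (5367 against 2393 CPM on Day 3, 265 against 217 CPM on Day 7 and 307 against 146 CPM on Day 14). The part of this list in these values was not tested.

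In marker-rich spots under tissue, Nr4a1 was 0.53 in epidermis-rich spots on Day 3 and -0.91 on Day 14. In macrophage-rich spots Junb was 0.36 on Day 7 and -0.68 on Day 14, and the sum of the 10 genes was 0.41 on Day 3 and -0.25 on Day 14. In granulation-rich spots Zfp36 was 0.85 on Day 3 and -0.80 on Day 7, and the sum was 0.30 and -0.24. In blood-rich spots Junb was 0.63 on Day 3 and -1.47 on Day 14, and the sum was 0.24 and -1.10. In blood-rich spots outside the marked tissue the Day 3 ratios had the other sign, at -2.26 for Junb (-3.18 to -1.47) and -1.46 for the sum (-1.83 to -1.12).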

How the results depend on the processing

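On Day 7 the count of genes at least 2-fold lower than on Day 3 was 6 to 8 of 10 under all alternatives tried, with 7 when all spots of the slide were used and 6 at 200 UMIs or more. The summed log2 ratio of Day 7 over Day 3 was -1.33 as a mean of spot CPM, -1.55 with all spots of the slide and -1.05 without neutrophil-rich spots. For Day 14 over Day 3 it was -0.79, -1.08 and -0.47 under these settings, -0.67 with TMM and -0.71 with DESeq2 size factors, and the count 2-fold lower was 6 with the mean of spot CPM, 7 with all spots, 1 at 200 UMIs and 6 at 1.5-fold. For Day 14 over Day 7 the sum was 0.48 with TMM, 0.46 with DESeq2 size factors and 0.47 with all spots; the count 2-fold higher was 0 with the mean of spot CPM, DESeq2 and all spots and 4 at 1.5-fold, and the count 2-fold lower was 1 with the mean of spot CPM, TMM, DESeq2, without neutrophil-rich spots and at 1.5-fold, in place of 0. The outside over under tissue sum of Day 3 was -0.031 with outside spots of at least 500 UMIs, 0.57 with those more than 2 pitches away, -0.22 with those within 2 pitches (-0.41 to -0.033), 0.14 without the 1% of spots with the most UMIs of the 10 genes and 0.18 without the group of 26 spots. The Day 3 count 2-fold higher outside was 0 and 2-fold lower 1 in the settings at 500 UMIs, without the 1% of spots and without the group. These outside counts take all 10 genes at any number of UMIs. No count in this section has the share of all genes under the same setting beside it, so the counts describe the 10 genes alone. On Day 7 the count 2-fold lower outside was 2 at more than 2 pitches and 0 without the 1% of spots, and on Day 14 without the 1% of spots it was 4, with a sum of -0.69. The share of spots with a UMI of any of the 10 genes, on Day 3, Day 7 and Day 14, was 38.1%, 17.3% and 26.9% at 500 UMIs, 77.5%, 56.0% and 69.1% at 2000 UMIs, and 61.3%, 80.3% and 86.4% without thinning, where the order of days changed. The number of genes whose left-out interval lay above 0 on Day 7 was 1 with the top 20% of spots, in place of 2. It was 4 when ranked after thinning and 0 outside the marked tissue. On Day 14 it was 1 with the top 5% and 1 outside, in place of 0. The median Spearman correlation was 0.15, 0.073 and 0.066, and the thinned Pearson correlation 0.038, -0.011 and -0.012. The summed ratio in Day 3 neutrophil-rich spots was 1.09 with the top 20% and 3.9997 outside the marked tissue. Of 332 marker-rich ratios, 127 had another sign outside the marked tissue, and for 6 of these both intervals left out 0. Among ratios past 2-fold under tissue, 5 changed sign: Fosb in endothelium-rich spots on Day 3 (0.26), and on Day 14 Ier2 in muscle-rich (0.14) and fat-rich spots (0.19), Egr1 in granulation-rich spots (0.998) and Jun in blood-rich spots (0.016). The cause of these changes was not tested. Of 297 day ratios of single genes and the sum, 271 moved by less than their counting interval, of 110 outside ratios 93, of 178 left-out ratios 153, of 271 marker-rich ratios 198 and of 99 shares 10. The group of 26 spots, the setting without neutrophil-rich spots and the contrasts outside the marked tissue were chosen after seeing the data. No paired analysis was possible because each day had 1 section.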

Other observations

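Values that belong to no comparison above concern the neighbourhood of the group of 26 spots on Day 3. Of the 60 spots in the top 5% of that slide by the summed share of the 10 genes, 55 lay outside the marked tissue (91.7%), where 56.4% of the spots with at least 500 UMIs lay. On Day 7 and Day 14 the same shares were 95.5% against 79.7% and 91.9% against 72.1%. Spots outside were shallower, with medians of 453 against 6687 UMIs on Day 7 and 350 against 4827 on Day 14. A shallow spot passes the cut with few UMIs, and the largest Day 7 group had 5 UMIs of the 10 genes in 4 spots. Pooled levels were lower outside on both days (377 against 456 CPM and 454 against 681 CPM). The part of depth in these shares was not tested. The Day 3 group had lower levels than the other spots for muscle genes (27303 against 65038 CPM), matrix fibroblast genes (14586 against 35490 CPM) and hemoglobin and other blood genes (3106 against 8798 CPM), while epidermal genes stood at 6235 against 7136 CPM and macrophage genes at 3872 against 3370 CPM. The inflammatory genes Cd14 (7158 against 263 CPM), Srgn (16724 against 660 CPM) and Ccl3 (2994 against 106 CPM) and the Nr4a1 relative Nr4a3 (22 UMIs, 495 against 11.995 CPM) were also among its 10 leading genes.

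The UMIs of the rarer genes were held by few spots under tissue. On Day 3 the 7 spots with the most UMIs of a gene held 33.8% of the Fosb UMIs and 28.8% of the Atf3 UMIs, but 12.7% of the Dusp1 UMIs and 11.1% of the Junb UMIs. The spots were picked by each gene's own UMIs, which totalled 65, 73, 205 and 477 in that order. A gene with few UMIs can lie in few spots only, so these shares depend on the totals. The richest spot under tissue on Day 3 had 44 UMIs of the 10 genes out of 14892, with 9 of Fos, 9 of Jun, 8 of Junb and 0 of Fosb.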
